A study of Mus musculus with 4 samples.

Results

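The mouse collagen genes, 40 of the 21883 protein-coding genes placed on assembled chromosomes in RefSeq, were examined for accessible chromatin in fibroblasts with and without Ranbp2. They were chosen as a gene family, and every ATAC-seq peak whose summit lay inside a collagen gene or within 20 kb of it was assigned to that family. Peaks of the 4 libraries that overlapped by at least 1 bp were joined into regions, which gave 39137 regions in all and 167 collagen sites. ATAC-seq marks open DNA by the insertion of sequencing adapters by a transposase, and the libraries followed the Omni-ATAC protocol.

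The knockout group held 2 libraries from 10T1/2 cells in which Ranbp2 had been disrupted with CRISPR-Cas9. The wild-type group held 2 libraries from 10T1/2 cells, a mouse embryonic fibroblast line, with Ranbp2 intact. The knockout cells came from 1 clone grown from a single sorted cell, so a difference between the genotypes and a difference between 1 clone and the parental line cannot be told apart. The labels do not state that replicates were separate cultures, so any spread between libraries may be technical. Ranbp2 is a nuclear pore protein of the cytoplasmic filaments, and the comparison addresses where open chromatin differs when it is lost.

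Collagens are secreted proteins built from chains wound into a triple helix, and they make up most of the protein of connective tissue. Fibrillar collagens assemble into banded fibres, basement membrane collagens form sheet-like networks beneath epithelia and around vessels, and the remaining types decorate fibres, form fine filaments or anchoring structures, or span the cell membrane. Fibroblasts are the main source of the fibrillar types I, III and V and of the type VI microfilaments, while types II, IX, X and XI are known chiefly from cartilage.

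A peak at a gene end, within 1 kb of either end of the gene, was found in all 4 libraries for 5 collagen genes, namely Col1a2, Col5a2, Col6a2, Col16a1 and Col23a1. No basement membrane collagen gene had one in any library. Most collagen sites lay inside the genes or in the flanking DNA, and 41 of the 167 were present in all 4 lists. Of those 41, ranks in the knockout libraries were both above the wild-type ranks at 11 sites and both below them at 10, and at 20 the ranks overlapped. The 3 collagen sites in the authors' differential lists lay at Col2a1 and Col16a1, listed as more accessible in knockout cells, and at Col27a1, listed as more accessible in wild-type cells.

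Only 3 collagen genes with a matched RefSeq promoter entry had a peak at an annotated start in every library. The 250 bases before that transcription start are shown for each. They come from RefSeq on GRCm38.p6, the assembly that mm10 names, and read 5′ to 3′ on the strand of the gene. Col1a2 lies on the plus strand at chr6:4505368-4505617, Col6a2 on the minus strand at chr10:76623405-76623654 and Col16a1 on the plus strand at chr4:130047590-130047839. The gene span of Col6a2 reaches chr10:76623630 and that of Col16a1 begins at chr4:130047817. Part of the printed stretch of each of these genes therefore lies inside its gene span. Capitals mark CCAAT, the GC box GGGCGG or the TEAD-type motif GGAATG, on either strand.
Col1a2: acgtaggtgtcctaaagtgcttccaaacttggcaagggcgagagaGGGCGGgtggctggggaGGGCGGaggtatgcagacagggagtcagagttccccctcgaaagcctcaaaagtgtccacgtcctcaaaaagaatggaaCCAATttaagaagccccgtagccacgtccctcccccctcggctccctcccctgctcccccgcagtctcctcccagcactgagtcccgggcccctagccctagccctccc
Col6a2: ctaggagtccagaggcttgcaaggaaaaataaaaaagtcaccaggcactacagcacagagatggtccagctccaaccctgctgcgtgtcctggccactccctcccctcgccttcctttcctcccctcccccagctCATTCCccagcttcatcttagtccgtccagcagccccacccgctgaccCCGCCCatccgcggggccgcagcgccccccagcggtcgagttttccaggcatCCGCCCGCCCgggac
Col16a1: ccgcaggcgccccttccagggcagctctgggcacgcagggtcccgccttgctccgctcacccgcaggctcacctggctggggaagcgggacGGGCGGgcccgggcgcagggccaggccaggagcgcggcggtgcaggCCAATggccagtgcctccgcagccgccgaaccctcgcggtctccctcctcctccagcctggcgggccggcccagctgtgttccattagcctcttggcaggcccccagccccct

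RefSeq promoter entries were matched for 32 of the 40 genes, and none was matched for Col1a1, Col2a1, Col4a3, Col5a2, Col9a3, Col12a1, Col14a1 and Col22a1. Searched on both strands in the 250 bases before the start, CCAAT was found in 11 of the 32 and in 36.3% of 17491 promoters, the GC box GGGCGG in 18 and in 42.7%, and TATAAA in 5 and in 12.4%. The AP-1 motif TGANTCA was found in 1 collagen promoter and in 6.22% of all, and GGAATG in 3 and in 11.6%. Of the 8 collagen genes with a peak at the annotated start in at least 1 list, 6 held a GC box and 4 held CCAAT. The percentages above pool promoters with and without a peak. No share among promoters with a peak was computed, so these 2 counts have no matched background. In the Col6a2 window 2 of the GC boxes share bases, at 15 and 11 bases before the start, so they appear as 1 run of capitals. The Col1a2 summits lay 32, 6, 13 and 103 bases before the start in knockout replicates 1 and 2 and wild-type replicates 1 and 2, all within the stretch printed above. Those of Col16a1 lay 37 bases before the start in knockout replicate 1 and wild-type replicate 2. In knockout replicate 2 and wild-type replicate 1 they lay 18 and 19 bases after it, outside the printed stretch. These matches describe letters, and no factor's binding was measured.

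The peak lists differed in length, which bears on every count that follows. The knockout libraries had 13877 and 24292 peaks and the wild-type libraries 33721 and 18511. No read counts were given, so sequencing depth is unknown, and a site missing from a list may lie under that list's threshold. As a check of the lists against the genotype, a peak at an end of Ranbp2 was present in all 4 libraries. Its fold enrichment was 8.22 and 14.4 in knockout cells and 18.1 and 13.0 in wild-type cells. An edited coding sequence need not alter a gene-end peak, so this does not test the knockout. Of 10 fibroblast markers, Vim, Fn1 and S100a4 had a gene-end peak in all 4 lists, whereas Pdgfra, Prrx1 and Fap had none in any. The fibroblast markers counted 3 and 3 in the knockout libraries, against 27.6% and 36.3% of protein-coding genes. They counted 7 and 5 in the wild-type libraries, against 42.5% and 34.5%. In lists of equal length they counted 3 in each, against 27.6% and 29.8% in knockout and 31.5% and 30.6% in wild type. Epithelial, endothelial and muscle markers had no gene-end peak in any list. Among 5 cartilage markers Sox9 had one in knockout replicate 2 and both wild-type libraries, and among 4 immune markers Cd68 had one in knockout replicate 2.

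Collagen sites numbered 50 and 91 in the knockout libraries and 147 and 74 in the wild-type libraries, a mean of 70.5 ± 29.0 and 110.5 ± 51.6 (SD, n = 2 each). The order of the 4 counts was the order of the 4 list lengths. The difference of -40 gave p = 0.667 in a two-sided exact permutation test, which with 2 libraries against 2 cannot go below 0.33. It was -19.5 without knockout replicate 1, -60.5 without knockout replicate 2, -3.5 without wild-type replicate 1 and -76.5 without wild-type replicate 2. With every list cut to its 13877 strongest peaks, the counts were 50 and 56 in the knockout libraries and 61 and 55 in the wild-type libraries, and the ranges overlapped. As a share of each list, collagen sites made up 0.360% (Wilson 95% interval 0.273 to 0.475) and 0.375% (0.305 to 0.460) of knockout peaks. They made up 0.436% (0.371 to 0.512) and 0.400% (0.319 to 0.502) of wild-type peaks. Both knockout shares lay under both wild-type shares, with intervals that overlap throughout and cover counting error only, and p = 0.33 in the exact permutation test is the smallest it can give. In the lists of equal length the shares overlapped and the exact p was 0.667.

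**Figure D1:**
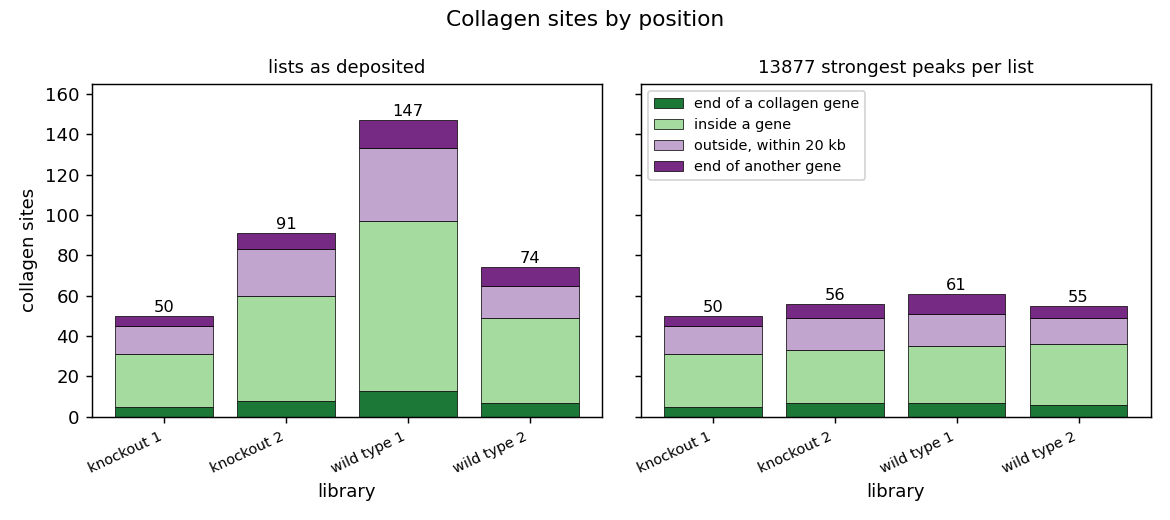
Number of collagen sites (y axis) in each library (x axis), stacked by position, for the lists as deposited (left) and for the 13877 strongest peaks of each list (right). Counts of 50 and 91 in knockout and 147 and 74 in wild type come to 50 and 56 in knockout and 61 and 55 in wild type once list length is made equal.

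By position, 13 of the 167 sites lay at gene ends, 99 lay deeper inside a gene and 40 lay outside. A further 15 lay within 1 kb of the end of a neighbouring gene that is no collagen gene. At least 1 site was found for 34 of the 40 genes, and none for Col4a5, Col9a2, Col10a1, Col13a1, Col22a1 and Col24a1. The distance limit decided some of these. At Col1a1, a site 19.5 kb away was counted, and a peak 20.3 kb away in knockout replicate 2, with a fold of 6.01, was not. Col10a1, the type X chain of hypertrophic cartilage, had peaks between 21.4 and 21.6 kb away in all 4 libraries. Col9a2, a chain of the cartilage type IX collagen, had peaks 22.3 kb away in all 4. The most sites fell to Col4a2, with 13, and to Col16a1, with 11. Col4a2 had 1 and 6 in the knockout libraries and 10 and 3 in the wild-type libraries. For Col16a1 the numbers were 5 and 8 in knockout and 10 and 6 in wild type.

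The 11 fibrillar genes held 58 sites over 1046 kb of gene span, the 8 basement membrane genes 42 sites over 1267 kb, and the 21 other genes 67 sites over 2637 kb. Of these sites, 19 fibrillar, 3 basement membrane and 19 other sites were present in all 4 lists. The 41 together are 24.6% of the collagen sites, against 28% of all merged regions. That 28% pools regions at gene ends and away from them, whereas no basement membrane site lay at a collagen gene end. For basement membrane genes the share was 7.14%, for fibrillar genes 32.8% and for the other genes 28.4%. Basement membrane sites numbered 6 and 17 in the knockout libraries and 35 and 14 in the wild-type libraries, and 18 of the 42 were listed only in wild-type replicate 1, as were 28.2% of all merged regions. At equal list length they numbered 6 and 7 in knockout and 10 and 7 in wild type.

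**Figure D2:**
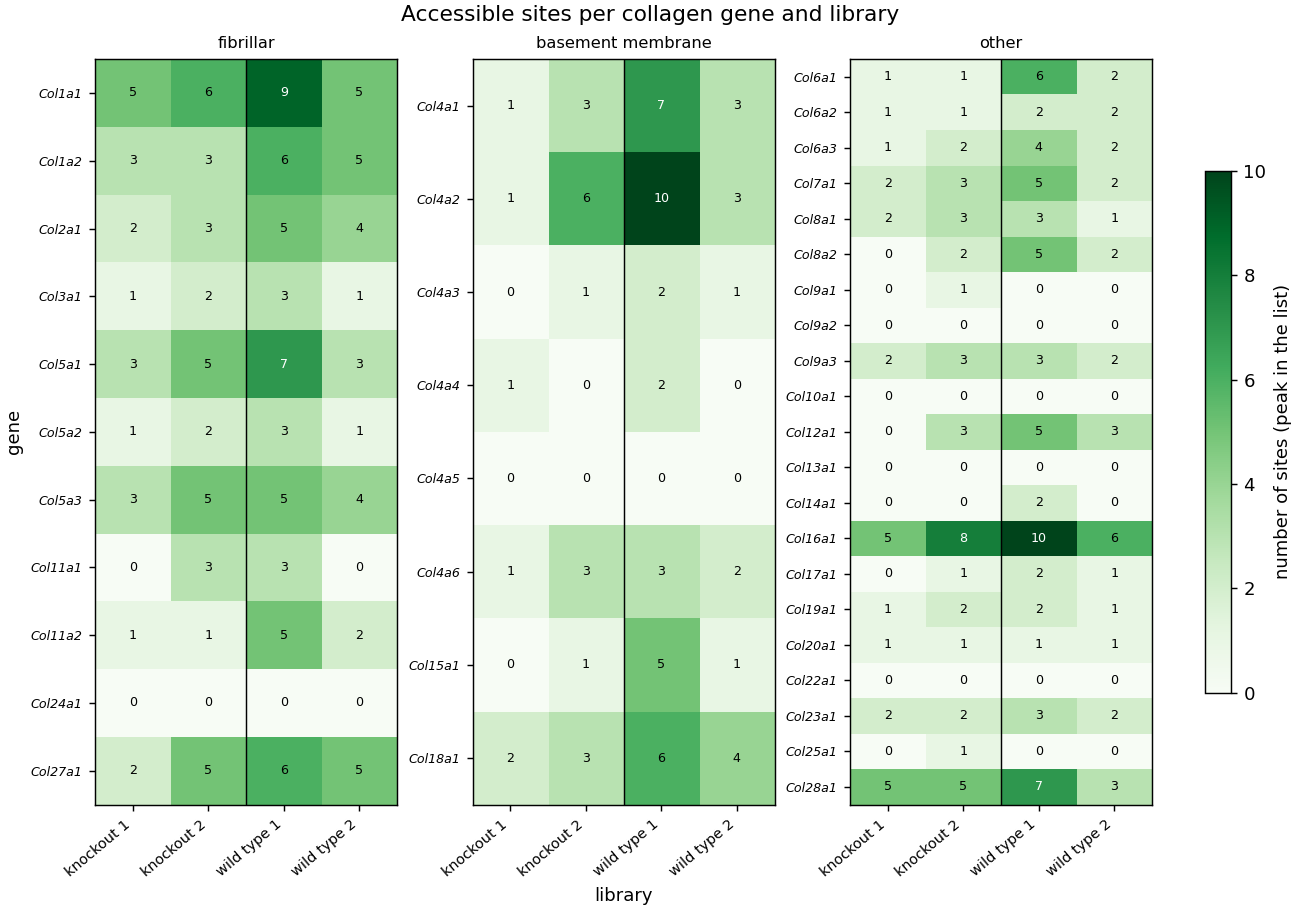
Number of accessible sites per collagen gene (rows of each panel) in the 2 knockout and the 2 wild-type libraries (columns), by class, with darker green for more sites. Col4a1 and Col4a2 hold many sites in wild-type replicate 1 (7 and 10) and few in knockout replicate 1 (1 each), the longest and the shortest list. At equal list length Col4a1 has 1 and 1 in knockout and 0 and 0 in wild type, and Col4a2 has 1 and 2 in knockout and 2 and 1 in wild type. No site is listed for 6 genes.

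At gene ends, 12 of the 40 genes (30.0%) had a peak in at least 1 list, against 43.4% of protein-coding genes, and 5 (12.5%) had one in all 4, against 26.4%. In the knockout libraries 5 and 8 collagen genes had one, against 27.6% and 36.3% of protein-coding genes, and in the wild-type libraries 12 and 7 had one, against 42.5% and 34.5%. At equal list length there were 5 and 7 in knockout, against 27.6% and 29.8% of genes, and 7 and 6 in wild type, against 31.5% and 30.6%. The difference of -3 between the means gave an exact permutation p of 0.667. It was -0.5 at equal list length, -1.5 and -4.5 without knockout replicates 1 and 2, and -0.5 and -5.5 without wild-type replicates 1 and 2. For no collagen gene was the end open in the pair of libraries of 1 genotype and closed in the other pair, a pattern that 0.0503% of protein-coding genes showed for knockout and 1.69% for wild type. The fold enrichments given here are the authors' values for each peak in its own list. Over all shared regions at gene ends their median was 8.78 and 11.5 in the knockout libraries and 15.7 and 13.0 in the wild-type libraries, so a fold is read against its own library.

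Among fibrillar genes, Col1a2, the second chain of type I collagen, had a peak at its start with a fold of 6.81 and 8.08 in knockout and 9.98 and 9.57 in wild type. These values lay under the gene-end median of their own library in all 4. Col1a1, which encodes the major type I chain, had a peak 20 bp from its lower-coordinate end. No promoter entry was matched for Col1a1, so that end is not named here as start or 3′ end. The fold was 7.46 in knockout replicate 2, and 8.06 and 6.85 in wild type. This peak was not listed in knockout replicate 1, the shortest list. Col5a2, a chain of the type V collagen that helps start type I fibrils, had a peak 146 bp from a gene end (chr1:45502971-45503216 in mm10) with a fold of 7.82 and 10.1 in knockout and 16.1 and 12.5 in wild type. Col11a1, a type XI chain, had a peak at its start in 1 library of each genotype, with a fold of 7.47 in knockout replicate 2 and 7.22 in wild-type replicate 1. Col3a1, which encodes type III collagen, and Col5a1, the main type V chain, had one in wild-type replicate 1 alone, with folds of 7.24 and 4.22. An end of each type I gene and of Col5a2 was thus listed in at least 3 libraries, and that of the type III gene in 1.

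Among the other classes, Col6a2, a chain of the type VI microfilaments, had a fold of 11.0 and 9.02 in knockout and 16.2 and 14.6 in wild type. It was the highest gene-end fold of the family in knockout replicate 1 and in both wild-type libraries. Its neighbour Col6a1 had a gene-end peak in wild-type replicate 1 alone, with a fold of 4.74. Col16a1, a collagen that associates with fibrils, had a start peak with a fold of 6.47 and 6.69 in knockout and 8.20 and 8.50 in wild type. Col23a1, a transmembrane collagen, had a peak 782 bp beyond its 3′ end (chr11:51584581-51584864) with a fold of 5.67 and 8.41 in knockout and 13.4 and 12.4 in wild type. That peak also lies within 1 kb of the end of Phykpl, so it cannot be assigned to Col23a1 alone. Col8a2, a short-chain collagen, had a 3′ end peak in 3 lists, with a fold of 4.55 in knockout replicate 2 and 8.08 and 5.70 in wild type. Col7a1, the anchoring fibril collagen, had one in wild-type replicate 1 alone, with a fold of 4.67.

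The basement membrane genes had no gene-end peak in any list, including Col4a1 and Col4a2, the ubiquitous type IV chains whose starts adjoin on chromosome 8. Their sites lay inside the genes or beyond. Col4a2 had 1 site in all 4 lists, 56.0 kb inside the gene, with a fold of 4.96 and 5.83 in knockout and 9.56 and 6.15 in wild type. Col18a1, whose product releases endostatin, had a site in all 4 lists 45.8 kb inside the gene, with a fold of 6.49 and 10.1 in knockout and 11.8 and 7.88 in wild type. Col4a6, an X-linked type IV chain, had one 14.9 kb outside the gene, with a fold of 7.49 and 7.06 in knockout and 6.93 and 8.65 in wild type. The ranks of all 3 sites overlapped between genotypes.

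**Figure D3:**
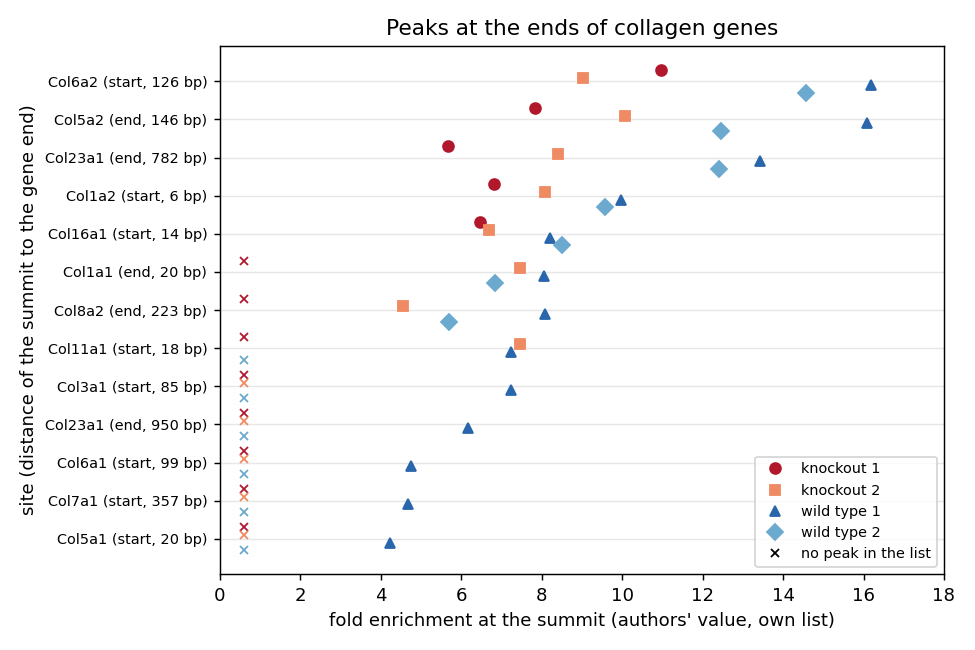
Fold enrichment at the summit (x axis, the authors' value in its own list) of the 13 collagen gene-end sites (y axis, with distance to the gene end), with 1 symbol per library and a cross where the list has no peak. The 5 genes at the top have a peak in every library, and 5 sites at the bottom are listed in wild-type replicate 1 alone.

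To compare strength between genotypes without list length, each library's peaks were ranked by -log10 q among the 10977 regions present in all 4 lists and written as percentiles, 100 being the strongest. The rank difference is the knockout mean minus the wild-type mean. With a library left out, the regions shared by the remaining lists were taken and ranked anew, so the set of sites changed. Over the 41 shared collagen sites, both knockout ranks lay above both wild-type ranks at 11, against 22.7% of all shared regions, and below at 10, against 25%. Both counts were near the background. The median rank difference was -1.77 for the 19 fibrillar sites, 9.27 for the 3 basement membrane sites and 4.70 for the 19 other sites, against -0.55 over all shared regions. The fibrillar median turned to 1.87 when ranked by fold and to 2.28 without knockout replicate 1. Without knockout replicate 2 the basement membrane median was -0.11, and without wild-type replicate 1 the median of the other genes was -3.95. In lists of equal length, the regions shared by the cut lists were ranked anew. The median was then -0.025 for 14 fibrillar sites and -1.63 for 17 other sites, and the 1 basement membrane site left had 14.9.

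Gene ends and the sites away from them were described apart. The 5 shared gene-end sites had a median rank difference of -13.0, against -1.88 for the 5172 shared regions at ends of protein-coding genes. At 3 of the 5, Col23a1, Col5a2 and Col1a2, both knockout ranks were lower, against 26.9% of shared gene-end regions, and at none were both higher, against 15.3%. Over the gene-end sites shared by the remaining lists, the median was -8.44 without knockout replicate 1 and -6.38 without knockout replicate 2. It lay between -13.8 and -6.38 over all 4 omissions. The 36 other shared sites, 5 of which lay at the end of a neighbouring gene, had a median of 5.05, against 0.85 for shared regions away from any gene end. Of these 36, 11 ranked higher in both knockout libraries, against 29.3%, and 7 lower, against 23.3%. Over such sites shared by the remaining lists, the median was 0.61 without knockout replicate 2 and 0.66 without wild-type replicate 1. In lists of equal length, with shared regions ranked anew, the median was -15.2 for 5 gene-end sites and 2.35 for 27 other sites. Over all 41 shared collagen sites of the deposited lists, gene ends included, it was -1.59, so its sign depends on which sites are pooled. With 5 gene-end sites, 1 of them shared with Phykpl, the gene-end median rests on few values.

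At the gene ends themselves, Col5a2 ranked 36.3 and 27.8 in the knockout libraries and 51.4 and 45.3 in the wild-type libraries, without overlap. Col1a2 ranked 27.3 and 24.0 in knockout and 27.8 and 39.4 in wild type, where the nearest pair differed by less than 1 percentile. Col23a1 ranked 18.2 and 42.0 in knockout and 62.3 and 67.0 in wild type, the largest gap of the 5. Its difference of -34.6 came to -17.3 without knockout replicate 1. For Col6a2 the ranks were 79.2 and 45.0 in knockout and 72.3 and 77.9 in wild type, and for Col16a1 they were 46.4 and 30.0 in knockout and 23.1 and 42.1 in wild type. These last pairs overlapped, and the difference was -13.0 for Col6a2 and 5.61 for Col16a1.

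Both genes of type I collagen had shared flanking sites. Around Col1a1, 4 outside sites were present in all 4 lists. The site 7.24 kb before the lower-coordinate end (chr11:94928822-94929122) ranked 26.1 and 30.1 in knockout and 60.9 and 62.5 in wild type, a difference of -33.6 that came to -20.3 when ranked by fold. On the far side, 5.15 kb beyond the gene, a site ranked 37.7 and 28.2 in knockout and 63.2 and 44.1 in wild type, a difference of -20.7 that came to -11.2 without wild-type replicate 1. Both were lower in both knockout libraries. The sites 2.38 and 19.5 kb away, on the lower-coordinate side, overlapped between genotypes, with differences of -1.77 and -13.8. At Col1a2 the site 17.1 kb before the start (chr6:4488416-4488636) ranked 71.2 and 69.2 in knockout and 53.9 and 52.3 in wild type, a difference of 17.2 in the opposite direction, and at 61.7 its mean rank was among the 5 highest of the family. The site 15.5 kb before the start ranked 41.2 and 21.7 in knockout and 36.5 and 31.5 in wild type, with overlap.

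Among the other fibrillar genes, Col2a1, the main cartilage collagen, had a pair of shared sites inside the gene, 3.32 and 2.67 kb from its higher-coordinate end. The site 3.32 kb from that end ranked 56.0 and 21.0 in knockout and 4.87 and 6.75 in wild type, a difference of 32.7, and overlaps a region in the authors' knockout-enriched list (chr15:98001204-98001603). Its fold was 7.05 and 6.01 in knockout and 5.68 and 5.51 in wild type. The difference came to 19.0 when ranked by fold and to 50.4 without knockout replicate 2. The other site of the pair ranked 34.3 and 48.9 in knockout and 15.9 and 25.6 in wild type. Both sites ranked higher in both knockout libraries, against a chromosome 15 median of -4.70. Col27a1, a minor fibrillar collagen found in cartilage, held the only collagen site in the wild-type-enriched list (chr4:63310473-63310873), 24.3 kb inside the gene. Its fold was 6.68 and 7.31 in knockout and 11.7 and 10.6 in wild type, and its rank was 43.1 and 35.3 in knockout and 64.5 and 63.3 in wild type, a difference of -24.8 that came to -14.2 when ranked by fold. A second Col27a1 site 43.7 kb inside ranked 4.04 and 0.925 in knockout and 23.6 and 13.2 in wild type, so both shared Col27a1 sites were lower in knockout.

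**Figure D4:**
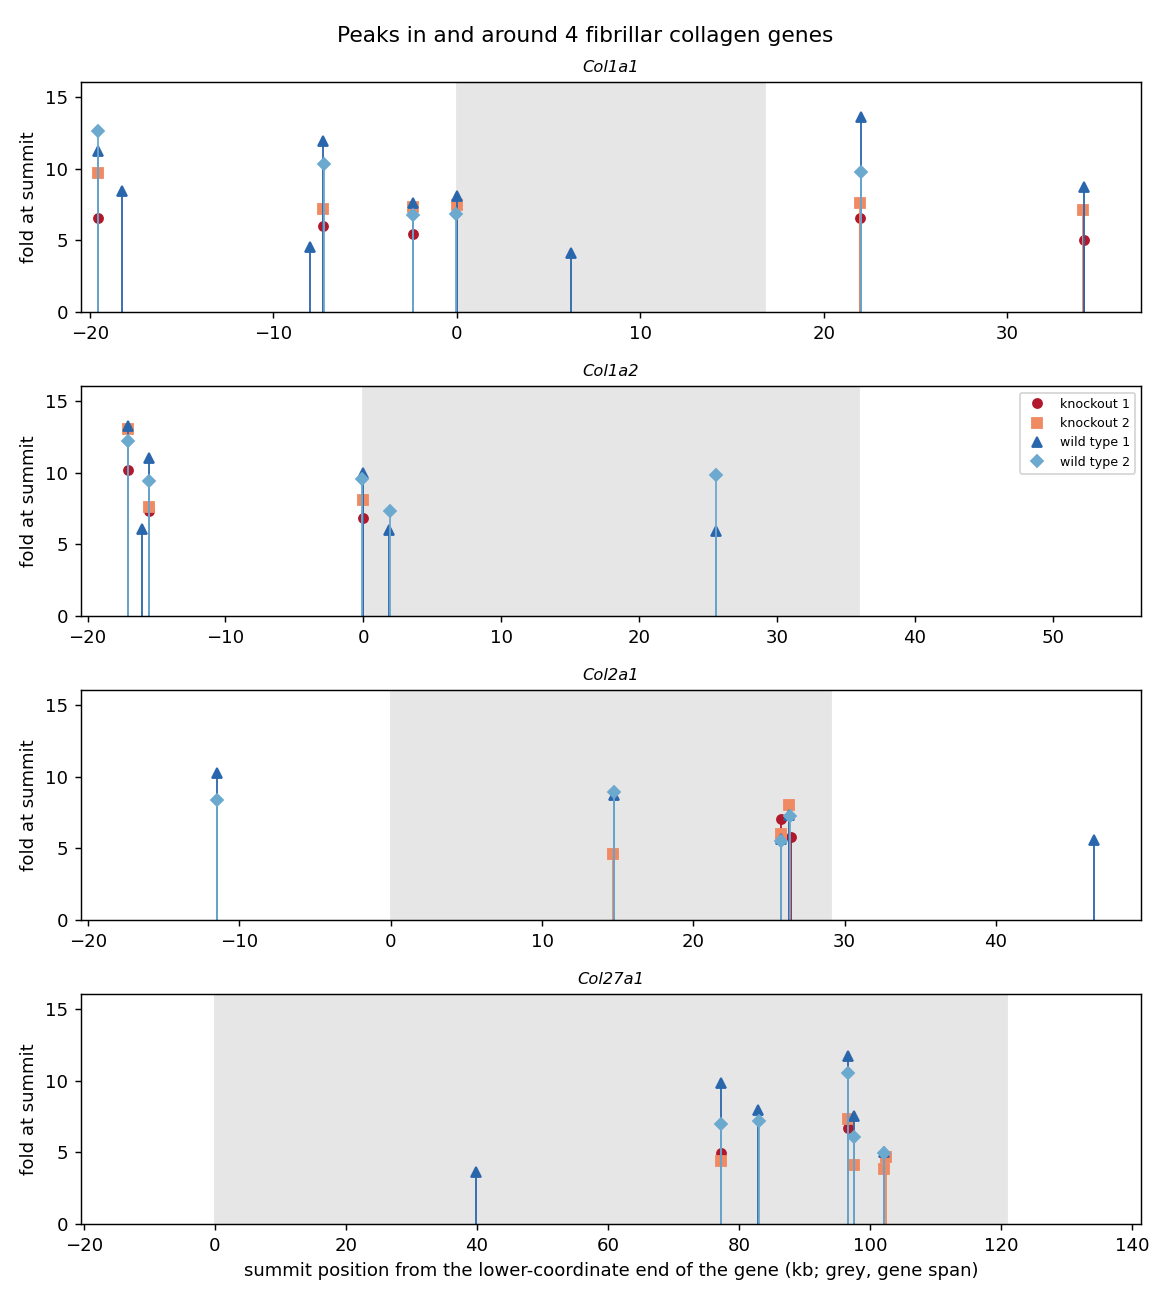
Fold enrichment at the summit (y axis, the authors' value in its own list) against the summit's distance in kb from the lower-coordinate end of the gene (x axis) for Col1a1, Col1a2, Col2a1 and Col27a1, with the gene span in grey and 1 symbol per library. The Col2a1 site about 3.32 kb inside the higher-coordinate end is the one where both knockout folds (7.05 and 6.01) exceed both wild-type folds (5.68 and 5.51).

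Col3a1 and the third type V gene, Col5a3, also had shared sites. The Col3a1 site 6.45 kb beyond its 3′ end ranked 34.8 and 23.3 in knockout and 22.6 and 3.09 in wild type, higher in both knockout libraries by a narrow margin. Of 3 shared Col5a3 sites, the one 20.6 kb inside ranked 52.9 and 39.0 in knockout and 30.0 and 24.9 in wild type, a difference of 18.5. A site 9.06 kb beyond the Col5a3 3′ end was among the strongest of the family, ranking 75.1 and 81.6 in knockout and 67.1 and 76.9 in wild type, with overlap.

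In the remaining classes, Col19a1, a fibril-associated collagen, had the largest positive difference. Its site 34.3 kb inside the gene (chr1:24553551-24553822) ranked 45.2 and 59.0 in knockout and 14.3 and 13.9 in wild type, a difference of 38.0, with a fold of 8.45 and 12.6 in knockout and 11.2 and 8.42 in wild type. A site 6.72 kb beyond the 3′ end of Col7a1 (chr9:108991499-108991984) ranked 81.1 and 73.4 in knockout and 55.0 and 43.1 in wild type, a difference of 28.2, where the chromosome 9 median was -4.81. Near Col9a3 a site that lies at the end of Mrgbp, 17.0 kb away, ranked 53.8 and 61.0 in knockout and 48.9 and 8.99 in wild type. Its difference of 28.4 was 7.10 without wild-type replicate 2 and 48.3 without wild-type replicate 1. Col8a1, a short-chain collagen, had a site 47.5 kb inside that ranked 39.5 and 48.5 in knockout and 24.5 and 9.76 in wild type, a difference of 26.9 that came to 16.8 without wild-type replicate 2. For these sites both knockout ranks were above both wild-type ranks.

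The largest negative difference was at Col16a1. Its site 24.0 kb inside the gene (chr4:130075100-130075422) ranked 22.5 and 16.4 in knockout and 51.7 and 57.9 in wild type, a difference of -35.3, with a fold of 5.87 and 6.46 in knockout and 13.2 and 11.7 in wild type. The same gene held the other collagen region of the authors' knockout-enriched list (chr4:130037140-130037539), 10.3 kb before the gene. That site ranked 51.6 and 71.8 in knockout and 24.6 and 71.6 in wild type, so its ranks overlapped, and its fold was 7.56 and 11.3 in knockout and 9.71 and 14.3 in wild type. The 24.0 kb site was the 1 shared Col16a1 site of 5 whose ranks did not overlap. The most strongly ranked collagen site of all lay 21.4 kb inside Col28a1 (chr6:8172116-8172519), a von Willebrand domain collagen. It ranked 86.7 and 85.2 in knockout and 84.4 and 78.0 in wild type, a difference of 4.70, with both knockout ranks above both wild-type ranks.

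Further shared sites completed the family. Those at Col6a1 (4.37 kb before its start, ranks of 24.9 and 35.1 in knockout and 19.0 and 14.6 in wild type) ranked higher in both knockout libraries. Those inside Col23a1, 44.1 kb from an end (10.0 and 19.2 in knockout, 34.4 and 27.0 in wild type), and near Col28a1 at the end of Mios (13.9 and 33.2 in knockout, 39.1 and 46.4 in wild type) ranked lower. At Col5a1, Col6a3, Col11a2, Col20a1, the inside site of Col7a1, the outside site of Col9a3 and the other sites of Col5a3 and Col16a1, the ranks overlapped. Some of these spread widely within a genotype. The Col5a1 site 50.5 kb inside ranked 0.738 and 52.6 in knockout and 1.22 and 21.0 in wild type, and the inside site of Col7a1 ranked 39.7 and 81.0 in knockout and 24.4 and 57.1 in wild type.

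The 3 sites in the authors' differential lists compare with 0.491% of all merged regions that overlap the knockout-enriched list and 0.493% that overlap the wild-type-enriched one. The 2 knockout-enriched collagen regions are 2 of the 167 sites and the wild-type-enriched one is 1 of them. These lists give positions without a fold or a p-value, so the size of the authors' difference is not known here.

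**Figure D5:**
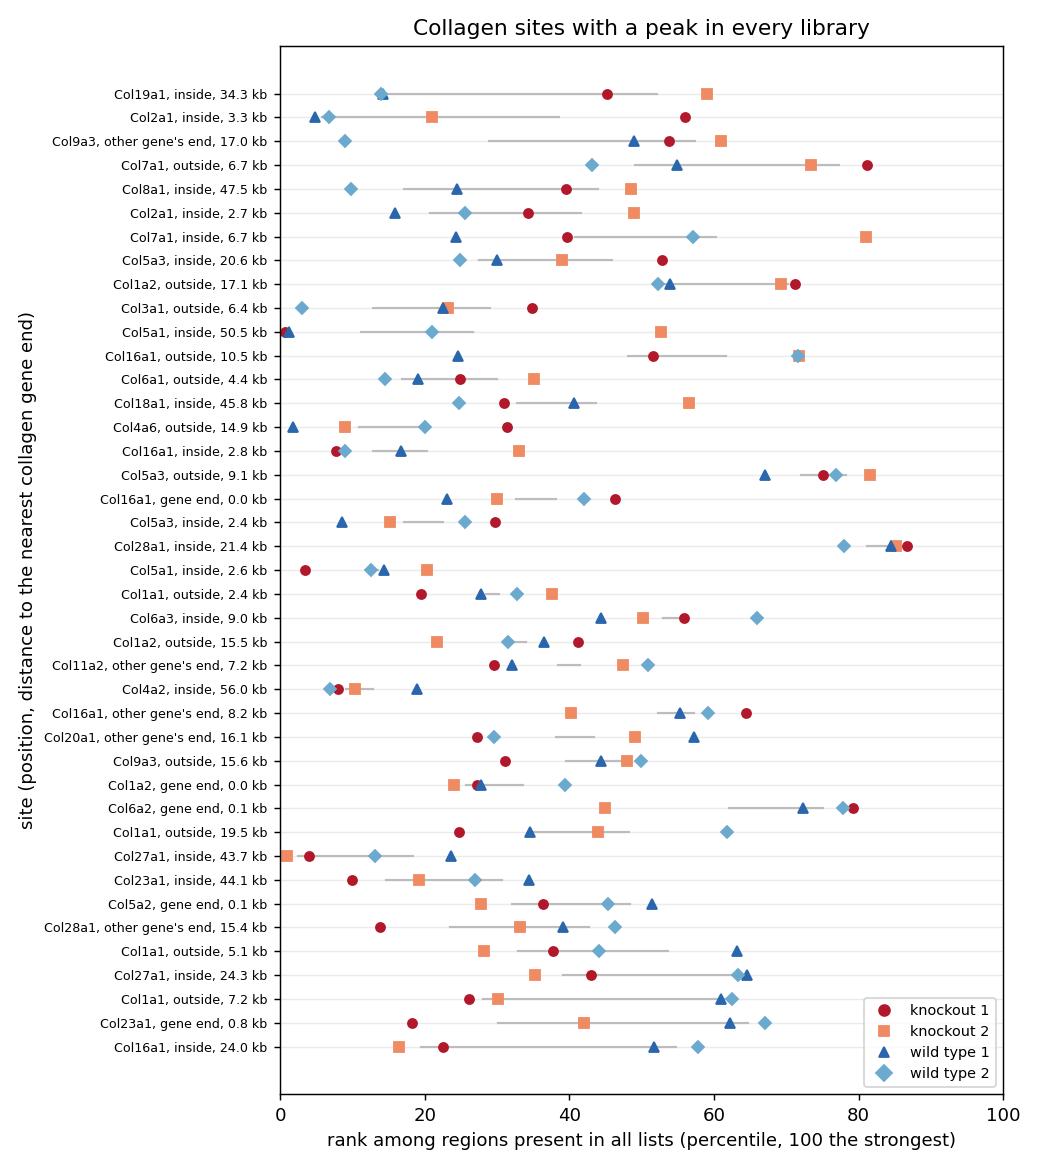
Rank among the 10977 regions present in all lists (x axis, percentile, 100 the strongest) of the 41 collagen sites with a peak in every library (y axis, with position and distance to the nearest collagen gene end), with 1 symbol per library and a grey line between the genotype means. Sites run from Col19a1 (38.0, higher in knockout) at the top to Col16a1 (-35.3, lower in knockout) at the bottom, and 20 of the 41 overlap.

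Presence in both libraries of 1 genotype and neither of the other was asymmetric, as were the list lengths. Only 1 site, 0.599% of collagen sites, was in both knockout lists and neither wild-type list, against 0.953% of all merged regions. It lay 39.4 kb inside Col8a1 (chr16:57715190-57715536), with a fold of 8.38 and 12.2 in the knockout libraries, at within-list percentiles of 57.6 and 80.1. In both wild-type lists and neither knockout list were 14 sites, 8.38% of collagen sites, against 6.52% of all merged regions, at gene ends and away from them. With lists of equal length 32 of 79 sites were in all 4, against 44.9% of regions, 5 sites were in the knockout lists alone and 9 in the wild-type lists alone, 6.33% and 11.4% of the sites, against 5.23% and 6.2% of regions. The 5 knockout sites lay at Col2a1, Col4a1, Col8a1 and, for 2 of them, Col28a1. Leaving out a library judges its genotype on the remaining list alone, a looser criterion that by itself can raise these counts. The knockout count of 1 was 17 without knockout replicate 1 and 6 without wild-type replicate 1. The wild-type count of 14 was 29 without knockout replicate 2 and 70 without wild-type replicate 2.

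Of the 14 sites in both wild-type lists alone, 4 were fibrillar, 3 basement membrane and 7 other. At Col1a2 they lay 1.90 kb inside from the start, with wild-type folds of 5.97 and 7.31, and 10.4 kb inside from the 3′ end, with wild-type folds of 5.95 and 9.85. Col2a1 had one at the end of Tmem106c with wild-type folds of 10.3 and 8.34, and Col27a1 one with wild-type folds of 7.97 and 7.19. Of the basement membrane genes, Col18a1 had a site 7.60 kb inside its start, with wild-type folds of 13.3 and 9.79, and one at the end of Slc19a1, with wild-type folds of 11.4 and 4.86. Col4a1 had one with wild-type folds of 5.00 and 5.22. The type VI genes had 1 each, with wild-type folds of 6.33 and 7.22 for Col6a1, 7.47 and 5.05 for Col6a2 and 6.23 and 9.40 for Col6a3. The others, again with their wild-type folds, lay at Col8a2 (7.02 and 6.08), Col12a1 (5.87 and 5.66), Col16a1 (11.0 and 6.60) and Col17a1, the hemidesmosomal transmembrane collagen (9.45 and 6.77). All 14 were absent from both knockout lists, and none was at the end of a collagen gene.

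A further 75 sites, 44.9%, were in 1 list alone, against 40.9% of all merged regions. They numbered 0 in knockout replicate 1, 16 in knockout replicate 2, 56 in wild-type replicate 1, the longest list, and 3 in wild-type replicate 2. Of all merged regions, 28.2% were in the list of wild-type replicate 1 alone. For regions missing from 1 list, the share of all merged regions was not computed, and the list of knockout replicate 1 is the shortest. Of 21 sites in 3 lists, 15 were missing from knockout replicate 1 alone. Among those, a site 2.40 kb inside Col12a1 (chr9:79718557-79718919), a fibril-associated collagen of dense connective tissue, had a fold of 8.08 in knockout replicate 2 and 20.6 and 18.8 in wild type. It stood at percentile 56.0 of the list of knockout replicate 2 and at 95.5 and 92.7 of the wild-type lists. It is the strongest collagen site by fold in both wild-type libraries, and its absence from the shortest list keeps it out of the rank comparison.

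Genes that help cells fold, export and process collagen were examined beside the collagen genes. Of 29 genes for hydroxylation, folding, export and processing, 11 and 14 had a peak at an end in the knockout libraries, against 27.6% and 36.3% of protein-coding genes, and 16 and 13 in the wild-type libraries, against 42.5% and 34.5%. The same count at equal list length was 11 and 11 in knockout, against 27.6% and 29.8%, and 13 and 12 in wild type, against 31.5% and 30.6%. In all 4 lists 10 of the 29 had one, against the 26.4% of protein-coding genes. They were the prolyl hydroxylase subunits P4ha1 and P4hb, the lysyl hydroxylase Plod3, P3h1 and P3h4 of the prolyl 3-hydroxylase family, and Ppib. The rest were the collagen chaperones Serpinh1 and Fkbp10 and the export genes Mia3 and Sec23a. No list had a gene-end peak for 11 of the 29, Crtap among them. P3h4 and Fkbp10 lie side by side and share 1 peak. The P4ha1 peak had a fold of 12.6 and 16.2 in knockout and 19.8 and 19.7 in wild type. The Serpinh1 peak had a fold of 4.57 and 8.81 in knockout and 9.88 and 7.86 in wild type. Colgalt1, which adds galactose to hydroxylysine, had a peak in knockout replicate 1 alone, with a fold of 10.9 at percentile 85.9 of its list. Sparc, P3h3 and Pcolce had peaks in 3 lists and lacked one in knockout replicate 1.

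Of 12 collagen receptors and collagenases, a peak lay at an end of 1 and 5 in the knockout libraries, against 27.6% and 36.3% of protein-coding genes, and of 6 and 4 in the wild-type libraries, against 42.5% and 34.5%. Itgb1, the common integrin beta chain, was the 1 in all 4, against 26.4%. Ddr2, a receptor tyrosine kinase for fibrillar collagen, had a fold of 12.1 in knockout replicate 2 and 15.0 and 11.0 in wild type. Itga10, an integrin chain that binds collagen, had 6.89 in knockout replicate 2 and 19.1 and 15.4 in wild type. Neither was listed in knockout replicate 1. At equal list length the receptor and collagenase count was 1 and 2 in knockout, against 27.6% and 29.8% of protein-coding genes, and 3 and 3 in wild type, against 31.5% and 30.6%.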

How the data were processed

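Accessible chromatin was profiled by ATAC-seq in 2 Ranbp2 knockout and 2 wild-type libraries of 10T1/2 cells, grouped by the titles in the labels. The submitters' processing notes name mm10 as the genome and list DiffBind 2.2.12, DESeq2, MACS2, Bowtie2, cutadapt and deepTools without saying what each did. The authors deposited 1 peak list per library, with a score, a fold enrichment ratio at the summit, and -log10 p and -log10 q values, which were used only to describe, rank or filter peaks. The lowest deposited -log10 q lay just above 3 in each list. The authors' 2 differential lists were deposited as positions alone, with thresholds not given in the sources used here.

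Gene spans and promoters came from RefSeq tables for GRCm38.p6. Peaks were joined where they overlapped by 1 bp or more, and a summit within 1 kb of either end of a gene span counted as a gene-end peak. Each site was given to its nearest collagen gene. Comparisons used two-sided exact permutation tests over the 4 libraries. The programs were Python 3.11.15 with pandas 2.3.3, numpy 2.4.6, scipy 1.17.1 and matplotlib 3.10.9, and the scripts were tested on simulated data. Depth is unknown because no counts were given. Rank medians over the collagen sites are given as descriptions, without a p.

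Values per library are given for genes with a site in a differential list, a gene-end peak in all 4 libraries, or a site in both libraries of 1 genotype alone. They are also given for the 5 shared sites of largest rank difference in each direction without overlap and the 5 of highest mean rank. All other sites with values per library, at these and at other genes such as Col3a1, Col4a2, Col4a6, Col5a1, Col5a3, Col6a1, Col11a1 and Col12a1, lie outside this rule and were chosen after their values were seen. The members and lists were chosen with earlier results of these data known. Alternatives were equal list length, a stricter -log10 q of 5, other windows, joining by summits within 150 bp, ranking by fold, subtracting the chromosome median, the annotated start alone, the replicate block and leaving out each library. The equal-length count for the processing genes was added after the data were seen.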

Additional observations from a re-analysis of the deposited data

How the results depend on the processing

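Of the 38 summary values recomputed under an alternative other than leaving out a library, 34 kept their direction, and site counts among them stayed within 1.5 times. No exact permutation test could pass 0.05, so no value could change its side of that threshold. The 34 also include the replicate-block values, which were fixed by arithmetic. Direction did not mean size: in lists of equal length the difference of -40 collagen sites was -5, and that of -3 genes with a gene-end peak was -0.5. The count of sites in both knockout lists alone, 1, was 5 in lists of equal length and 2 with peaks joined by summits. Leaving out 1 library each, which judges that genotype on its remaining list alone, gave 1 to 17. The count in both wild-type lists alone, 14, was 9 in lists of equal length. Leaving out 1 library each gave 15 to 70 under the same looser criterion. The fibrillar median rank difference of -1.77 was 1.87 when ranked by fold and ran from -10.5 to 2.28 with 1 library left out. The same range was -0.11 to 7.55 for basement membrane genes and -3.95 to 7.10 for the other genes. Equal list length was not counted among the 38 for these medians, and there the median of the other genes was -1.63. Medians with 1 library left out were taken over the sites shared by the remaining lists, so the set of sites differs too. Beyond such changes of definition, the cause of these changes was not tested. The 10 named sites of largest rank difference without overlap kept their sign under the alternatives run. They were chosen for large differences without overlap, so leaving out a library could hardly change the sign, and this does not test them. At sites whose ranks overlap the sign can rest on 1 library: those of the Col6a2 end, the Col16a1 end and the Col1a1 site 2.38 kb away change when 1 knockout library is left out of the means. Shared replicate numbers in the titles do not show that the libraries were paired. The replicate number as a block gives the same differences by arithmetic in this balanced design, -40 collagen sites and -3 genes with a gene-end peak, and so tests nothing. With 2 libraries per genotype the exact permutation test cannot pass 0.05, and unknown depth limits what a missing peak means.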
